A study of Mus musculus with 16 samples.

Results

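The genes described here are 34 mouse genes that type I interferon switches on, measured in the lungs of 16 mice. They were found on the array by name: every probe that is not a control and carries a gene's symbol, or an older synonym of it, was taken. Of the 34 genes, 33 had a probe (54 probes in all), and 30 were bright enough to be tested, out of 21248 genes tested among 27703 gene names on the array. Xaf1 had no probe by this rule. Oas1g was well above background on 0 of 16 arrays, Oas3 on 1 and Oasl1 on 7, and these 3 genes were not tested. None of the counts below covers the 4 untested genes.

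All 16 mice were A/J females, an inbred strain prone to lung tumours, in 4 groups of 4 that the labels call biological replicates. Untreated mice ate the basal AIN-76 diet, which holds 0.35 ppm selenium. NNK mice had 1 intraperitoneal injection of NNK, a nitrosamine found in tobacco (10 uM in 0.2 mL of saline), stayed on the basal diet and were killed 13 days later. SECY mice ate selenocystine, an amino acid that carries selenium, at 15 ppm for 10 days. NNK+SECY mice had the injection and then, from 3 days after it, 10 days of the same selenocystine diet. The sources used here do not state the age of the mice. Each lung RNA was labelled with Cy5 and hybridised against 1 Cy3-labelled reference, made by mixing RNA from all 4 Untreated mice in equal parts, so a value is log2(Cy5/Cy3), the lung against the untreated mix. Untreated and NNK mice with the same number shared slides 1 to 4, and SECY and NNK+SECY mice shared slides 5 to 8. NNK and NNK+SECY were scanned on 1 day, and Untreated and SECY on another.

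Type I interferons are secreted by cells that sense foreign or misplaced nucleic acid. They bind a receptor on the same and neighbouring cells, and through the JAK kinases they assemble a complex that holds STAT2 and IRF9 and binds the interferon-stimulated response element, a pair of GAAA blocks near the start of its target genes. The targets sense viral RNA, degrade it, block its translation or tag proteins with ISG15, and several of them raise the cell's readiness for the next signal. The interferon-inducible GTPases among them also answer strongly to interferon gamma, which T and NK cells make.

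The response element was looked for in the promoters, since the genes of the list are grouped by this shared input. The pattern was GAAANNGAAA on either strand, overlapping matches allowed, within the 250 bases before the RefSeq start of each gene (build GRCm38.p6). It was present for 14 of the 27 listed genes with a promoter in the table (51.9%), against 936 of 27025 genes in all (3.46%). The pattern TTCNNNGAA, the core of the element that answers interferon gamma, was present for 6 of the 27 (22.2%), against 8.13% of all genes. Both patterns can overlap one another. The windows below are shown because the genes beside them carry the results that follow, with 5 that varied together between mice and then Rsad2, which did not vary with them. Each is written in the direction of its gene, and the capitals mark the match nearest the start, GAAANNGAAA or its reverse complement. Further matches that overlap it stay in lower case.
Isg15, chr4:156200855-156200904, minus strand: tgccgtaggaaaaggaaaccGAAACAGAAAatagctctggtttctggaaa
Ifit3, chr19:34583387-34583436, plus strand: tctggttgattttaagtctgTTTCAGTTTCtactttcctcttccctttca
Gbp3, chr3:142559985-142560034, plus strand: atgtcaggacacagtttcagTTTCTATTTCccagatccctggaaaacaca
Igtp, chr11:58199502-58199551, plus strand: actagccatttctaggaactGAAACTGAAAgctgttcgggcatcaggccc
Irgm1, chr11:48871421-48871464, minus strand: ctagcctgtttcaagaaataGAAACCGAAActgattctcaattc
Rsad2, chr12:26456543-26456592, minus strand: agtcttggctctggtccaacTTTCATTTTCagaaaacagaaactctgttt
The last marked base lay 57 bases before the start in Isg15, 113 in Ifit3, 30 in Gbp3, 25 in Igtp, 15 in Irgm1 and 111 in Rsad2. Overlapping matches ended 63 and 69 bases before the start in Isg15, 36 in Gbp3 and 21 in Irgm1. Gbp2, Ifit1, Oas1a, Oas1g, Oas3, Stat2, Trim30 and Bst2 also held the pattern. Ifih1, Ddx58, Eif2ak2, Oasl1, Oasl2, Irf7, Irf9, Trim25, Ifit2, Isg20, Ifi35, Ifi44 and Xaf1 did not. Some genes without it, such as Ifi44, varied together with the others, and Ifit1, which held it, did not. Whether the pattern and the shared variation go together was not tested. Promoters of Zbp1, Oas2, Usp18, Mx1, Mx2, Rtp4 and Parp14 were not in the table.

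The arrays differed in brightness. The median Cy5 spot signal ran from 71.2 to 94.2 on slides 1 to 4 and from 89.7 to 105 on slides 5 to 8. In Cy5, 66.3% to 72.6% of spots were well above background on slides 1 to 4 and 75% to 79.3% on slides 5 to 8. All diet-fed mice were on slides 5 to 8. Diet and slide set therefore cannot be told apart where SECY or NNK+SECY is compared with Untreated, or NNK+SECY with NNK. All 10 lung markers (surfactant proteins, Ager, Aqp5, club cell secretoglobins, Foxj1 and Cldn5) were well above background on every array. No interferon response gene was saturated on any array, and of the 30 tested ones 29 were well above background on all 16 arrays and Mx1 on 11.

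Neither NNK, nor selenocystine, nor both together gave a called change in any of the 30 genes. A gene was called where its adjusted p from limma (Benjamini-Hochberg over all genes tested) was under 0.05. NNK against Untreated called 0 of 30, against 0.32% of all genes, and 2 of 30 had an unadjusted p under 0.05 (5.04% of all genes). SECY against Untreated called 0 of 30 (0.278% of all genes), with 1 at an unadjusted p under 0.05 (8.11%). NNK+SECY against Untreated called 0 of 30 (1.6% of all genes), with 2 at an unadjusted p under 0.05 (9.23%). NNK+SECY against NNK called 0 of 30 (1.75%), with 1 at an unadjusted p under 0.05 (9.9%). NNK+SECY against SECY called 0 of 30 (0.00942%), with 1 at an unadjusted p under 0.05 (6.14%). The interaction, the NNK difference in diet-fed mice minus that in mice on the basal diet, called 0 of 30 in limma (0.00471%), with 2 at an unadjusted p under 0.05 (4.61%). At unadjusted p the counts of 1 or 2 of 30 lie near or under the shares of all genes. The median standard error (SE) of a gene's log2 fold change was 0.0949 in the pairwise comparisons (n = 4 arrays a group). Shifts well above their SE also went uncalled, such as Isg20 at -0.41 ± 0.16 in NNK+SECY against NNK (limma adjusted p 0.343). A count of 0 called genes therefore does not exclude shifts larger than the SE. None of the 3 comparisons against Untreated moved a gene by more than 0.56 in log2.

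**Figure D1:**
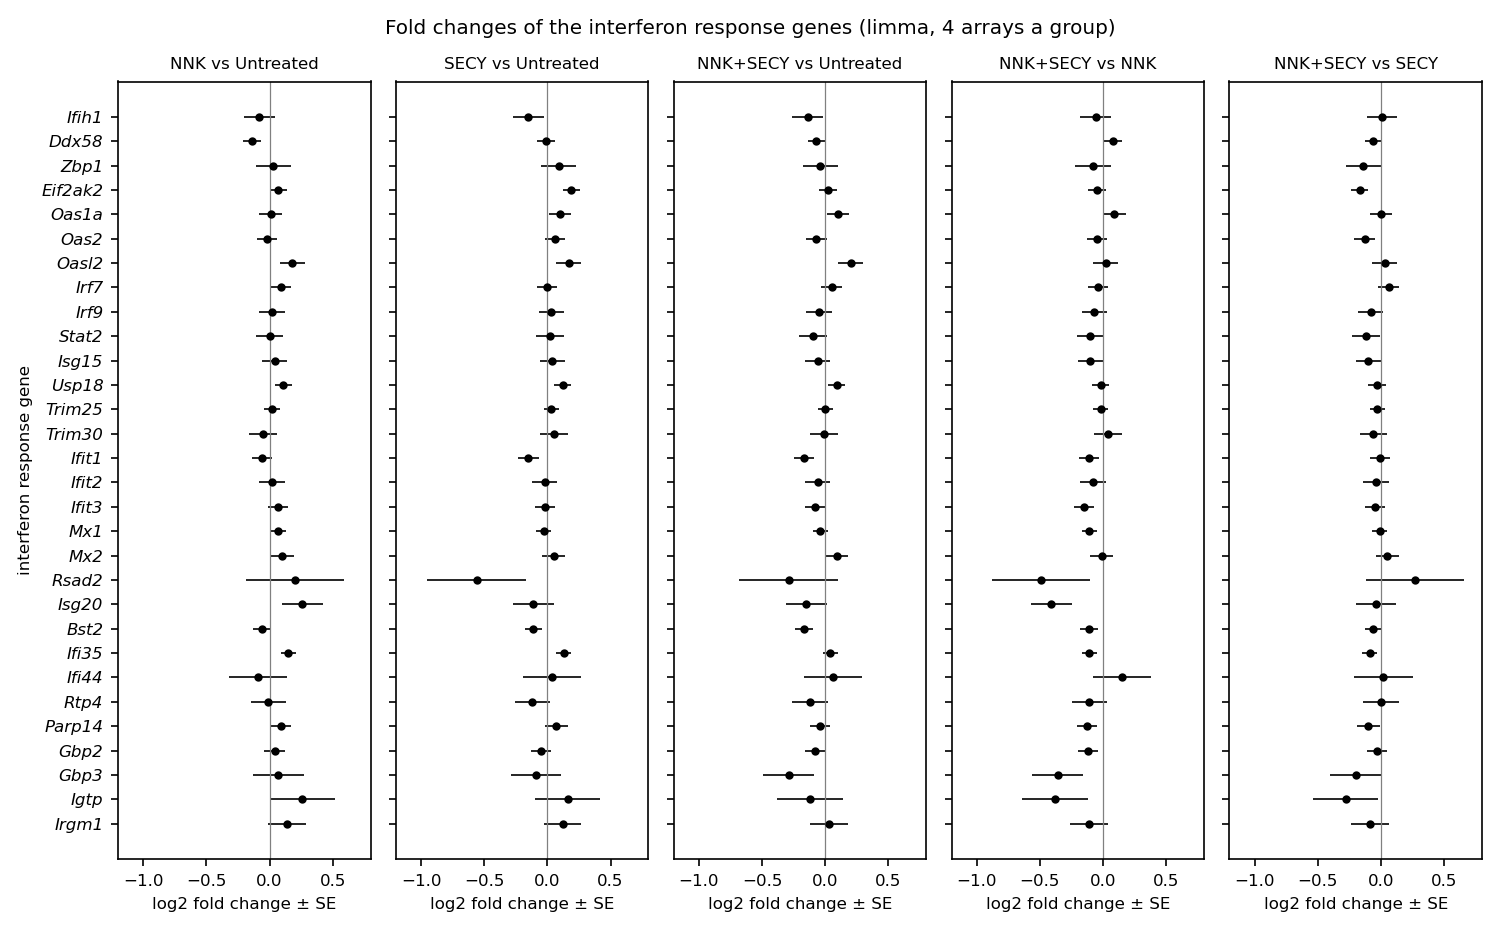
Log2 fold change of each of the 30 tested interferon response genes (points) with the SE of the limma model (bars) in the 5 pairwise comparisons, 4 arrays a group; genes are ordered by role from top to bottom. Most points lie within 0.2 of 0, and the long bars belong to Rsad2, Igtp, Ifi44 and Gbp3.

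The direction of the fold changes was described by counts, with the same counts over all genes beside them. In NNK against Untreated 21 of 30 genes were above 0, with a median log2 fold change of 0.04 (range -0.14 to 0.26), against 52.9% of all genes above 0. In SECY against Untreated 17 of 30 were above 0, with a median of 0.03 (range -0.56 to 0.19), against 48.1% of all genes. NNK+SECY against Untreated had 9 of 30 above 0 and a median of -0.06 (range -0.29 to 0.20), against 50.2% of all genes. These counts turned on single mice. Without Untreated 1 they became 25, 23 and 16 of 30 in that order. Without Untreated 2 the NNK count became 16 of 30, and without SECY 1 the SECY count became 8 of 30.

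NNK+SECY against NNK had the most uneven count, with 5 of 30 genes above 0 and a median of -0.09 (range -0.49 to 0.15), against 48.9% of all genes and a median of -0.002 over all genes. Leaving out each mouse in turn kept this count between 4 and 6 and the median between -0.09 and -0.06. The 2 groups were scanned on the same day but lay on different slide sets, so diet and slide set cannot be told apart here. NNK+SECY against SECY had 8 of 30 above 0 and a median of -0.05 (52.8% of all genes above 0), while without SECY 1 it had 18 of 30 and without NNK+SECY 3 it had 3 of 30. In the interaction 7 of 30 were above 0, with a median of -0.09 (50.5% of all genes), and the count was 3 without Untreated 1 and 11 without SECY 1. The genes do not vary independently between mice, so these counts are not 30 separate observations.

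Within a slide the injected mouse could be set against its neighbour without a slide difference, although the 2 were scanned on different days, so NNK and scan day cannot be told apart. The median over the genes of NNK minus Untreated was -0.07 on slide 1, 0.08 on slide 2, 0.06 on slide 3 and 0.09 on slide 4. For NNK+SECY minus SECY it was -0.20 on slide 5, 0.01 on slide 6, 0.03 on slide 7 and -0.01 on slide 8. Slides 1 and 5 hold Untreated 1 and SECY 1, and on both the injected mouse was the lower one.

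Groups that did not overlap, with every array of one group above every array of the other, were counted over genes with all 8 values. NNK against Untreated had 1 of 30 such genes, higher in NNK (3.79% of all genes in either direction and 2.44% higher). SECY against Untreated had 0 of 29 (3.96% in either direction), and NNK+SECY against SECY had 0 of 28 (2.84%). NNK+SECY against Untreated had 1 of 29, lower (6.81% of all genes in either direction and 3.61% lower), and NNK+SECY against NNK had 2 of 29, lower (8.47% and 5.18%). These shares are near those of all genes. The 4 genes were Ifi35, Ifit1, Isg20 and Ifit3, and they are described with their families.

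**Figure D2:**
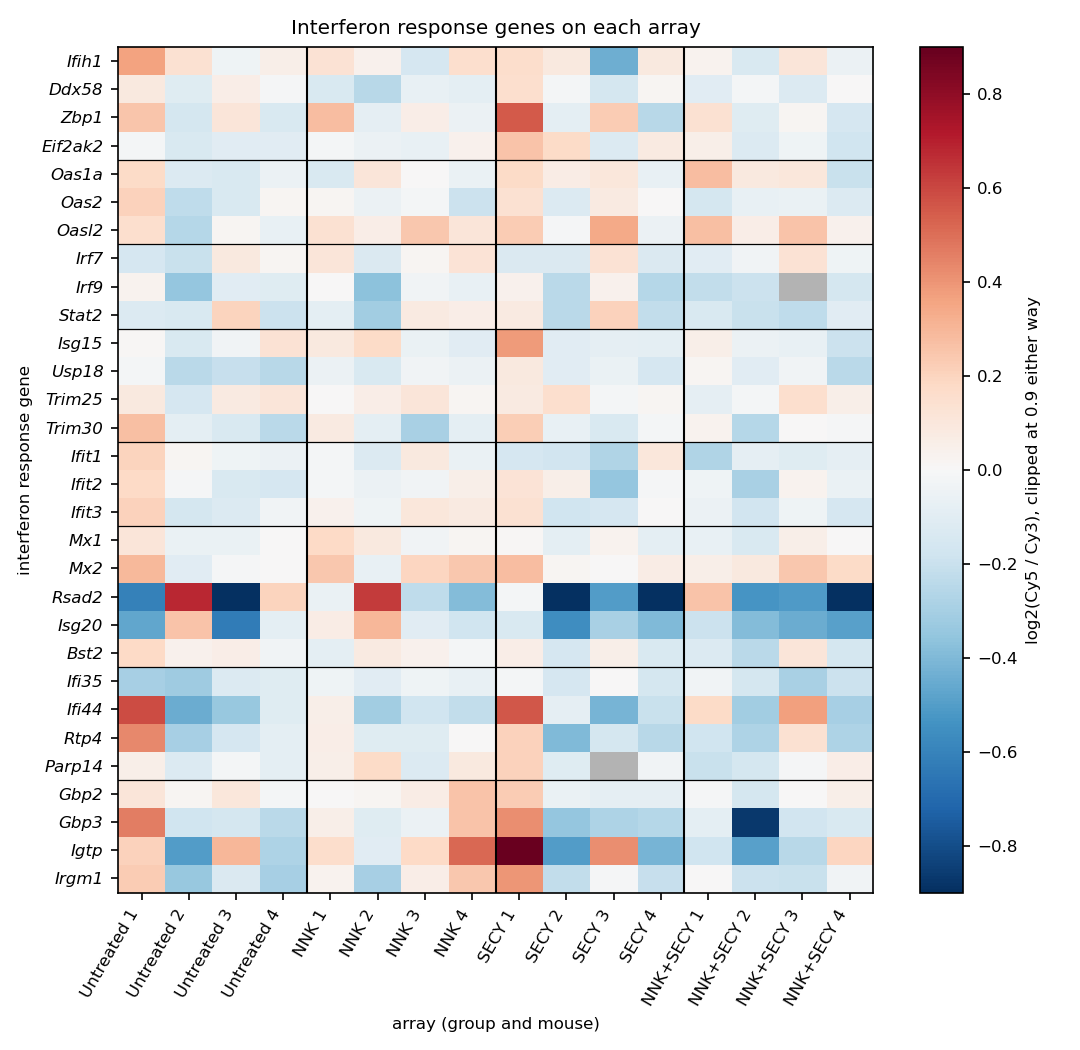
Heat map of log2(Cy5/Cy3) for the 30 tested genes (rows, grouped by role with thin lines) on the 16 arrays (columns, groups split by vertical lines), with colours clipped at 0.9 either way; grey marks the 2 values removed by spot flags. Untreated 1 and SECY 1 are the reddest columns, and the Rsad2 and Isg20 rows differ from the rest.

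The sensors of viral RNA and DNA were Ifih1 (MDA5) and Ddx58 (RIG-I), which bind double-stranded RNA, Zbp1, which binds left-handed nucleic acid, and Eif2ak2 (PKR), a kinase that halts translation when it meets double-stranded RNA. Ifih1 and Zbp1 spanned the widest range among them, 0.80 in log2. Zbp1 was at 0.25, -0.16, 0.11 and -0.14 in Untreated 1 to 4 and at 0.28, -0.08, 0.06 and -0.05 in NNK 1 to 4. It was at 0.55, -0.09, 0.23 and -0.25 in SECY 1 to 4 and at 0.14, -0.11, 0.02 and -0.15 in NNK+SECY 1 to 4. SECY 1 was the highest of all, mouse 1 was the highest of every group, and all 4 groups overlapped. Ifih1 ran from -0.04 to 0.36 in Untreated, -0.15 to 0.15 in NNK, -0.44 to 0.16 in SECY and -0.14 to 0.11 in NNK+SECY, and SECY 3 was its lowest array.

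Eif2ak2 had the smallest p of the 30 genes in SECY against Untreated. Its values were -0.02, -0.14, -0.10 and -0.10 in Untreated, and 0.26, 0.17, -0.12 and 0.08 in SECY. They were -0.02, -0.05, -0.07 and 0.04 in NNK, and 0.05, -0.12, -0.04 and -0.18 in NNK+SECY. SECY 1, 2 and 4 lay above every Untreated mouse and SECY 3 lay among them. The log2 fold change of SECY over Untreated was 0.19 ± 0.07 (SE), with an adjusted p of 0.43 from limma. With arrays weighted by quality it was 0.24 ± 0.06, with a limma adjusted p of 0.0476. This was the single call for any of the 30 genes under any alternative tried. The lowest of all the weights, 0.195, was that of SECY 3, the SECY mouse that lay among the Untreated mice. NNK+SECY against SECY gave -0.17 ± 0.07 (limma adjusted p 0.791). Ddx58 was -0.14 ± 0.07 in NNK against Untreated (limma adjusted p 0.972), with overlapping groups.

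The oligoadenylate synthetases make a short RNA messenger that switches on RNase L, which cuts viral and cellular RNA. Oas1a, Oas2 and Oasl2 were tested, and Oasl2 had the widest range. Oasl2 was at 0.15, -0.26, 0.02 and -0.07 in Untreated and at 0.14, 0.06, 0.24 and 0.11 in NNK. It was at 0.23, -0.01, 0.34 and -0.05 in SECY and at 0.27, 0.06, 0.26 and 0.04 in NNK+SECY. Untreated 2 was the lowest array, and the 3 treated groups lay a little higher with overlap. The log2 fold changes over Untreated were 0.18 ± 0.10 in NNK, 0.17 ± 0.10 in SECY and 0.20 ± 0.10 in NNK+SECY, with limma adjusted p-values of 1, 0.731 and 0.568. These 3 comparisons share the 4 Untreated arrays. Oas1a ran from -0.20 to 0.28 and Oas2 from -0.23 to 0.21 over all arrays. The coding sequences of this family are similar, and whether a probe also binds a relative's RNA was not tested.

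The transcription factors were Stat2 and Irf9, partners in the complex that carries the signal to the genes, and Irf7, which amplifies interferon production. Stat2 had the widest range. It was at -0.12, -0.14, 0.20 and -0.19 in Untreated and at -0.09, -0.31, 0.08 and 0.06 in NNK. It was at 0.08, -0.24, 0.21 and -0.22 in SECY and at -0.14, -0.20, -0.23 and -0.10 in NNK+SECY. High and low mice occurred in 3 groups, while the 4 NNK+SECY mice were close together at the low end. None of the 5 pairwise fold changes of Stat2 exceeded 0.12 in size. Irf7 lay between -0.20 and 0.13 and Irf9 between -0.37 and 0.04, where 1 NNK+SECY value of Irf9 was missing because of a spot flag.

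The ISG15 system attaches the small protein Isg15 to other proteins. Usp18 takes it off again and also damps the interferon receptor, Trim25 is a ligase that activates RIG-I, and Trim30 is an interferon-induced relative of it. Isg15 was at 0.01, -0.14, -0.03 and 0.13 in Untreated and at 0.09, 0.17, -0.06 and -0.10 in NNK. It was at 0.38, -0.10, -0.08 and -0.09 in SECY and at 0.05, -0.05, -0.07 and -0.19 in NNK+SECY. SECY 1 stood alone above the other 15 arrays. The SECY over Untreated fold change of Isg15 was 0.04 with all mice and -0.08 without SECY 1, so its sign rested on that mouse. Usp18 lay between -0.25 and 0.09, Trim25 between -0.15 and 0.15 and Trim30 between -0.29 and 0.27.

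The IFIT proteins bind foreign RNA ends and block translation. Ifit2 had the widest range, at 0.18, -0.01, -0.14 and -0.15 in Untreated and at -0.02, -0.05, -0.03 and 0.05 in NNK. It was at 0.12, 0.05, -0.35 and -0.01 in SECY and at -0.04, -0.29, 0.03 and -0.06 in NNK+SECY. SECY 3 and NNK+SECY 2 were low, and the groups overlapped. Ifit1 was at 0.20, 0.02, -0.04 and -0.05 in Untreated and at -0.27, -0.08, -0.11 and -0.08 in NNK+SECY, without overlap. The log2 fold change was -0.17 ± 0.08, with a limma adjusted p of 0.528. Ifit3 in NNK+SECY, at -0.05, -0.17, -0.04 and -0.15, lay under every NNK mouse (0.04, -0.04, 0.10 and 0.08), by less than the rounding for the nearest pair, with a log2 fold change of -0.15 ± 0.08 and a limma adjusted p of 0.593. On their brightest probes all 3 genes were below 0 in NNK+SECY against NNK, at -0.11, -0.08 and -0.15. A second, dimmer Ifit2 probe was at 0.11, -0.22, -0.02 and 0.18 in NNK and at -0.01, 0.09, 0.10 and 0.10 in NNK+SECY. NNK+SECY was not the lower group there. On the other Ifit3 probes the NNK and NNK+SECY groups overlapped.

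The antiviral effectors were the GTPases Mx1 and Mx2, the radical enzyme Rsad2 (viperin), the exonuclease Isg20 and the membrane tether Bst2. Rsad2 had the widest range of all 30 genes, 1.97 in log2, which is 3.92-fold between the highest and the lowest array. It was at -0.61, 0.68, -1.10 and 0.20 in Untreated and at -0.06, 0.63, -0.23 and -0.39 in NNK. It was at -0.02, -1.29, -0.50 and -1.28 in SECY and at 0.26, -0.53, -0.51 and -1.22 in NNK+SECY. High and low mice occurred inside each group, and Untreated 2 was 3.45-fold above Untreated 3. The fold changes of Rsad2 therefore had wide errors, at -0.56 ± 0.39 for SECY over Untreated (limma adjusted p 0.797) and -0.49 ± 0.39 for NNK+SECY over NNK (limma adjusted p 0.756).

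Isg20 had the lowest p of the 30 genes in NNK+SECY against NNK. It was at -0.47, 0.26, -0.63 and -0.09 in Untreated and at 0.07, 0.30, -0.10 and -0.18 in NNK. It was at -0.14, -0.56, -0.29 and -0.40 in SECY and at -0.19, -0.39, -0.45 and -0.49 in NNK+SECY. All 4 NNK+SECY mice lay under the 4 NNK mice, the nearest pair by 0.01. The log2 fold change was -0.41 ± 0.16, with a limma adjusted p of 0.343, and a second, dimmer Isg20 probe gave -0.18. The median of the red cell markers, described below, ran from -0.14 to 0.31 in NNK and from -0.59 to 0.03 in NNK+SECY, and its part in the Isg20 difference was not tested. Bst2 was -0.17 ± 0.07 in NNK+SECY against Untreated (limma adjusted p 0.499). Mx1 lay between -0.14 and 0.18 and Mx2 between -0.10 and 0.29. Laboratory strains such as A/J are known to carry a broken Mx1. Whether that defect alters its RNA, or what the probes detect, was not tested. The Mx1 probe used was well above background on 11 of 16 arrays and a second one on 2. The 11 were 2 Untreated, 1 NNK, 4 SECY and 4 NNK+SECY arrays. Mx1 was thus tested only through the diet-fed groups, and most of its NNK values were near background. It is still counted among the 30 genes.

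Of the other induced proteins, Ifi44, Rtp4, Parp14 and Ifi35 were tested. Ifi44, a protein of little-known function that marks interferon exposure, had the widest range. It was at 0.59, -0.45, -0.34 and -0.11 in Untreated and at 0.05, -0.31, -0.18 and -0.22 in NNK. It was at 0.56, -0.08, -0.42 and -0.20 in SECY and at 0.17, -0.31, 0.37 and -0.30 in NNK+SECY. Untreated 1 and SECY 1 were the highest, and Untreated 1 was 2.07-fold above Untreated 2, a mouse of the same group. Rtp4, which carries receptors through the secretory pathway, had the same order at the top, with Untreated 1 at 0.43 and SECY 1 at 0.21, and it was at -0.40 in SECY 2, the lowest. Parp14, an ADP-ribosyl transferase, lay between -0.20 and 0.21, with SECY 3 missing because of a spot flag.

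Ifi35 was the gene of NNK against Untreated whose groups did not overlap. It was at -0.30, -0.32, -0.12 and -0.11 in Untreated and at -0.04, -0.10, -0.04 and -0.07 in NNK, a log2 fold change of 0.15 ± 0.06 with a limma adjusted p of 0.894. Its mean log2 Cy5 signal was 8.62 in Untreated and 8.60 in NNK, and its mean log2 Cy3 signal was 8.83 and 8.66. The lung channel was thus nearly level and the reference channel, which holds the same mix on every array, was the lower one in NNK.

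The interferon-inducible GTPases, which take part in the defence against intracellular pathogens, varied the most as a family. Igtp was at 0.21, -0.50, 0.30 and -0.28 in Untreated and at 0.16, -0.10, 0.18 and 0.52 in NNK. It was at 0.89, -0.50, 0.42 and -0.42 in SECY and at -0.18, -0.49, -0.25 and 0.19 in NNK+SECY. SECY 1 was 2.61-fold above SECY 2 although both ate the same diet. The fold changes of Igtp were 0.26 ± 0.26 for NNK over Untreated, -0.38 ± 0.26 for NNK+SECY over NNK and -0.54 ± 0.37 for the interaction, and the limma adjusted p-values were 1, 0.714 and 1. Gbp3 was at 0.46 in Untreated 1 and at -0.16 to -0.24 in the other 3 Untreated mice, and at 0.42 in SECY 1 and -0.26 to -0.35 in the other 3 SECY mice. NNK+SECY 2 was its lowest array at -0.87, which is 2.51-fold under Untreated 1. Irgm1 lay between -0.34 and 0.40 and Gbp2 between -0.16 and 0.26, and all 4 GTPases were below 0 in NNK+SECY against NNK, from -0.38 to -0.11.

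The spread between mice of one group was larger for these genes than for most. The standard deviation (SD) within groups had a median of 0.146 over the 30 genes and 0.0948 over all genes tested, and 26 of the 30 lay above the latter. Of the 30, 9 lay above 0.179, the value that 10% of all genes exceed. The median within-group SD of the lung channel, Cy5, was 0.184 against 0.124 for all genes. In the reference channel, Cy3, it was 0.102 against 0.0875. Rsad2 had the largest SD at 0.63, followed by Igtp at 0.43, Ifi44 at 0.37 and Gbp3 at 0.32. The comparison with all genes was not matched for brightness. Some dimmer probes had a smaller SD than the brightest of their gene, as in Rsad2 and Ifi44, and others a larger one, as in Ifit3. Each mouse had 1 array, so spread between mice and between arrays cannot be told apart.

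Most of the genes rose and fell together from mouse to mouse. Over the 28 genes with all values, the mean correlation between pairs of genes, taken on deviations from the group means over 16 arrays, was 0.294, against 0.0014 over 20658 genes. It was 0.188 without SECY 1 and 0.098 without both Untreated 1 and SECY 1, when all genes gave 0.000862, so much of it came from those 2 mice. The points of such a correlation share arrays, dye labelling and normalization. Rtp4 followed the mean of the other genes with r = 0.89, Gbp3 with 0.84, Zbp1 and Ifi44 with 0.83, Usp18 with 0.82, Ifit3 with 0.81 and Irgm1 with 0.79, and 19 of 30 genes exceeded 0.5. The 6 genes under 0.2 were Irf7 at -0.05, Ifit1 at -0.04, Isg20 at -0.01, Rsad2 at 0.10, and Trim25 and Ifi35 at 0.14. Other probes of the same genes did not all follow their brightest probe. A second probe gave r = 0.91 for Irgm1, 0.82 for Trim30 and 0.77 for Parp14, each above background on 16 arrays. The second probe of Irf9 gave -0.20 against 0.60 for the brightest, and that of Trim25 -0.51 against 0.14, both above background on 16 arrays. For Ifit2 the second probe, above background on 15 arrays, gave 0.11 against 0.49.

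**Figure D3:**
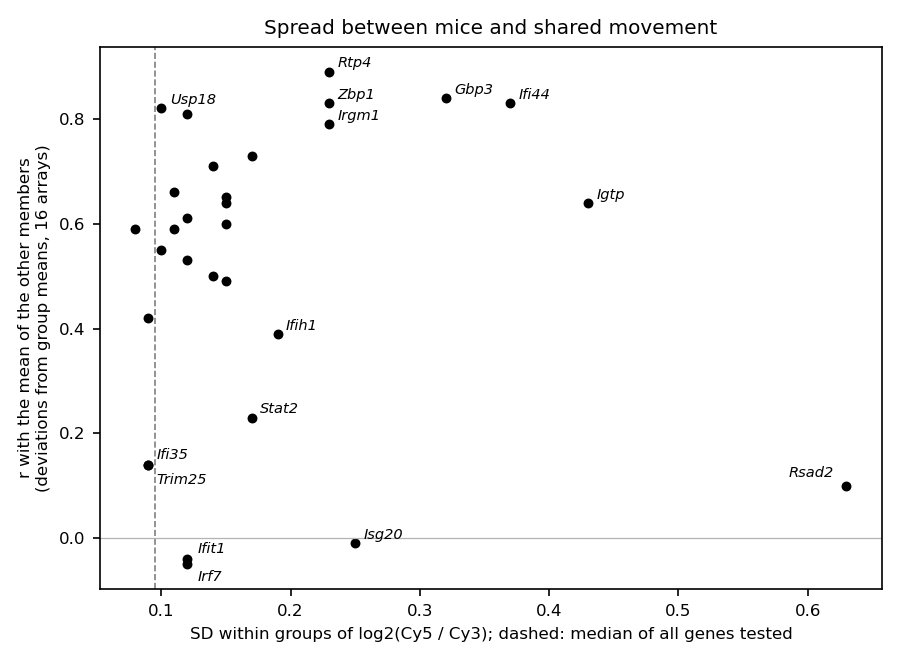
Each point is 1 of the 30 tested genes: the x axis is its SD within groups of log2(Cy5/Cy3) and the y axis the correlation of its deviations from the group means with the mean of the other genes over 16 arrays. Gbp3, Ifi44 and Igtp combine a large spread with a high correlation, and Rsad2 and Isg20 have a large spread with a correlation near 0.

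The mean over the 30 genes was 0.11 in Untreated 1, while the other Untreated mice were at -0.12, -0.10 and -0.07. SECY 1 was at 0.19, and SECY 2 to 4 were at -0.16, -0.07 and -0.15. NNK mice lay between -0.03 and 0.04, and NNK+SECY mice between -0.18 and -0.03. Untreated 1 held the highest value of 11 of the 30 genes and SECY 1 that of 9, and Untreated 2 held the lowest of 9. As deviations from the group mean, mouse 1 was the highest of every group, at 0.15 in Untreated, 0.03 in NNK, 0.23 in SECY and 0.07 in NNK+SECY, where mouse 3 was at 0.06. Mouse 2 was the lowest of every group, at -0.08, -0.04, -0.12 and -0.09. The deviations of Untreated 1 and SECY 1 correlated at 0.503 over all genes with complete values, and at 0.235 over the interferon response genes among them. Those of Untreated 3 and SECY 3 correlated at 0.499 and 0.163 in the same order, so the first value was not particular to mice numbered 1. The labels do not say what a number shared between groups stands for, and its part in these values was not tested.

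Immune cell markers were read on the same arrays. The median log2 ratio of 8 of 9 monocyte markers was 0.26 in Untreated 1 and 0.05 in SECY 1, that of 16 of 16 T and NK cell markers 0.20 and 0.03, and that of 9 of 10 B and plasma cell markers 0.20 and -0.04. For 9 of 10 markers of plasmacytoid dendritic cells, which make much interferon, it was 0.12 and 0.07. Untreated 1 was the highest Untreated mouse for all 4 lists. SECY 1 was the highest SECY mouse for the monocyte and dendritic cell lists, and SECY 2 for B and plasma cells. For T and NK cells SECY 1 and SECY 3 were level at 0.03. The summed log2 Cy5 signal of that list was 10.98 in SECY 1 and 11.04 in SECY 3. Of 10 of 12 neutrophil markers the median was 0.09 in Untreated 1 and 0.11 in SECY 1, and of 13 of 14 alveolar macrophage markers 0.04 and -0.10. NNK 1 was also high, at 0.22 for monocyte, 0.14 for T and NK cell and 0.20 for B and plasma cell markers, while its mean over the interferon genes was 0.04. The summed log2 Cy5 signal of the monocyte list ran from 11.17 to 11.99 in Untreated, 11.23 to 11.80 in NNK, 11.03 to 11.68 in SECY and 11.11 to 11.43 in NNK+SECY. For T and NK cell markers it ran from 10.78 to 11.20, 11.06 to 11.15, 10.77 to 11.04 and 10.94 to 11.02 in the same order. For B and plasma cell markers it ran from 10.27 to 11.40, 10.49 to 11.26, 10.41 to 10.69 and 10.56 to 11.11, and for dendritic cell markers from 11.39 to 11.53, 11.29 to 11.31, 11.14 to 11.33 and 11.22 to 11.48. No marker on the array from these 4 lists was at background on all arrays. In whole lung, more cells of a type and more RNA per cell cannot be told apart, and the part of these cells in the interferon values was not tested.

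Outside the list, the 8 genes whose deviations were most like the mean of the 30 were Cmpk2 (r = 0.97), Ifi47 (0.95), Iigp1 (0.94), Gbp8 (0.92), Coro2a (0.90), Acas2 (0.89), Tgtp1 (0.89) and Sox4 (0.89), over 16 arrays. Cmpk2 is an interferon-induced nucleotide kinase, Ifi47, Iigp1 and Tgtp1 are interferon-inducible GTPases, and Gbp8 is a guanylate-binding protein. Iigp1 was at 0.69 in Untreated 1 and at -0.50, -0.24 and -0.30 in the other Untreated mice. It was at 1.01 in SECY 1 and at -0.22, -0.29 and -0.21 in SECY 2 to 4. It was at 0.28, -0.10, -0.06 and 0.45 in NNK, and at 0.19, -0.62, 0.23 and -0.14 in NNK+SECY. Without Untreated 1 and SECY 1 the correlations were 0.84 for Cmpk2, 0.80 for Ifi47, 0.79 for Iigp1, 0.59 for Gbp8, 0.62 for Coro2a, 0.70 for Acas2, 0.68 for Tgtp1 and 0.88 for Sox4. Acas2 was well above background on 9 of the 16 arrays.

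**Figure D4:**
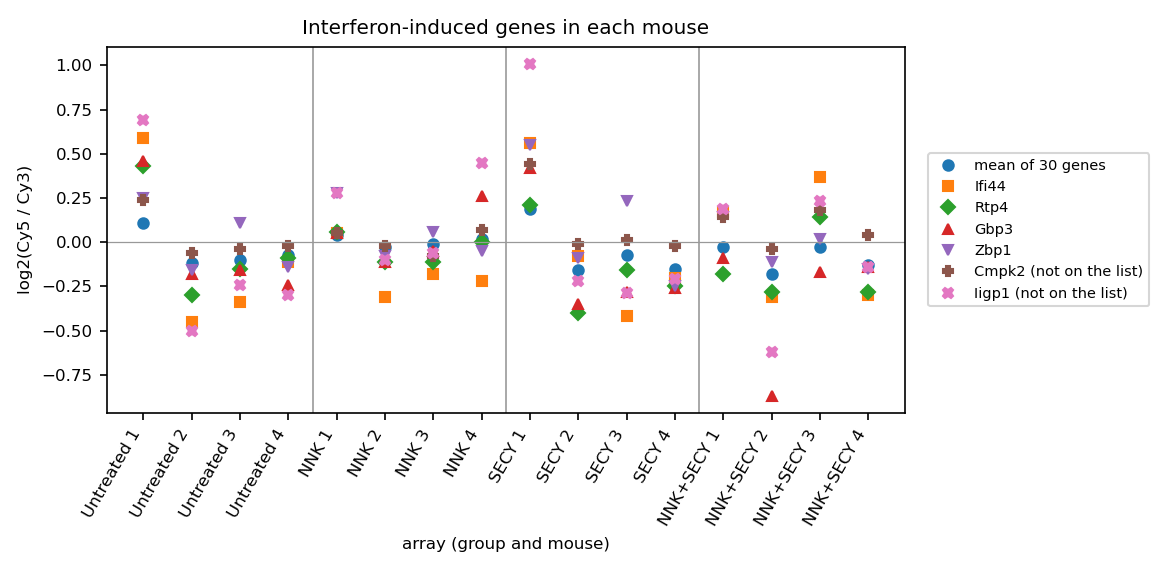
Log2(Cy5/Cy3) on each of the 16 arrays (x axis, groups split by grey lines) for the mean of the 30 genes, for Ifi44, Rtp4, Gbp3 and Zbp1, and for Cmpk2 and Iigp1, which are not on the list. Within Untreated and within SECY, mouse 1 is the highest for all 7 series.

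Rsad2 and Isg20 did not follow the other genes but followed each other, with r = 0.92 over 16 arrays. All 3 Rsad2 probes had Untreated 2 as their highest array, at 0.68, 0.46 and 0.41, and the reference signal of the brightest one was level, between 8.96 and 9.39, while its Cy5 signal ran from 7.69 to 10.02 in log2. The 10 genes most like Rsad2, chosen after its values were seen, included Bpgm (r = 0.98), Kcnh6 (0.98), Slc4a1 (0.97), Eraf (0.96) and Slc25a37 (0.96). Bpgm makes bisphosphoglycerate in red cells, Slc4a1 is the red cell anion exchanger, Eraf is the alpha haemoglobin chaperone, and Slc25a37 brings iron to mitochondria for haem. Slc4a1 was at -0.63, 0.59, -0.59 and 0.30 in Untreated, -0.03, 0.45, -0.08 and -0.10 in NNK, 0.14, -0.75, -0.24 and -0.75 in SECY, and 0.15, -0.52, -0.34 and -0.97 in NNK+SECY. The mice high and low in Rsad2 were high and low in Slc4a1.

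The red cell list fixed for the analysis had 4 of 8 markers tested under their listed names: Alas2, Hba-a1, Slc4a1 and Epb42. The chaperone Eraf is on the list as Ahsp, and the 4 do not include it. Epb42 moved little, with an SD within Untreated of 0.08 against 0.62 for Slc4a1. The median of these 4 correlated with Rsad2 at 0.88 and with Isg20 at 0.86 over 16 arrays. It ran from -0.70 to 0.28 in Untreated, -0.14 to 0.31 in NNK, -0.93 to -0.10 in SECY and -0.59 to 0.03 in NNK+SECY. The summed log2 Cy5 signal of the list ran from 15.45 to 15.97, 15.61 to 15.88, 15.33 to 15.89 and 15.63 to 15.68 in that order. Most of that sum was Hba-a1, with mean log2 Cy5 signals of 15.65, 15.63, 15.51 and 15.60. Of the 6 markers with a probe under their listed names, 3 were well above background on all 16 arrays. Whether red cell RNA accounts for part of the Rsad2 and Isg20 values was not tested.

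**Figure D5:**
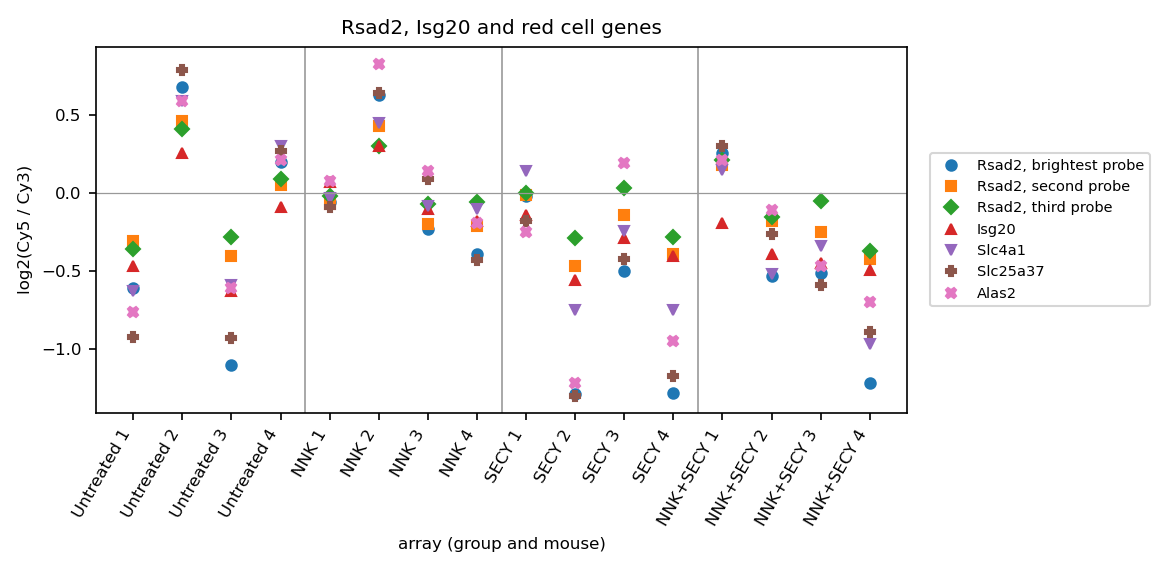
Log2(Cy5/Cy3) on each of the 16 arrays (x axis, groups split by grey lines) for the 3 Rsad2 probes, Isg20 and the red cell genes Slc4a1, Slc25a37 and Alas2. The series are highest together in Untreated 2 and NNK 2 and low together in SECY 2, SECY 4 and NNK+SECY 4.

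The rest of the pathway was read from 6 lists with 122 genes, of which 102 were tested. Limma called 1 of the 102 in NNK+SECY against Untreated (1.06% of all genes were called lower) and 1 in NNK+SECY against NNK (1.44%), both lower and both Ifnab, an interferon alpha gene, and 0 in the other 4 comparisons. Ifnab was at -0.04, 0.10, 0.22 and 0.21 in Untreated, 0.16, 0.21, 0.25 and 0.21 in NNK, -0.05, -0.07, -0.05 and -0.06 in SECY, and -0.19, -0.05, -0.14 and -0.25 in NNK+SECY. The log2 fold change was -0.28 ± 0.06 over Untreated (limma adjusted p 0.0193) and -0.36 ± 0.06 over NNK (limma adjusted p 0.00192). The mean log2 Cy5 signal of Ifnab was 6.65 in Untreated, 6.73 in NNK, 6.92 in SECY and 6.82 in NNK+SECY, so the lung channel was not lower in NNK+SECY. The mean log2 Cy3 signal was 6.53, 6.53, 6.98 and 6.98, higher on slides 5 to 8 for the same reference mix. A second Ifnab probe gave 0.04 ± 0.08 over Untreated and -0.01 ± 0.08 over NNK.

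None of the 6 receptor chains tested was called, and Il10rb, a chain of the interferon lambda receptor, had the smallest p among them, at -0.14 ± 0.04 in NNK+SECY against Untreated (limma adjusted p 0.187). Ifnar1, a chain of the type I receptor, lay between -0.22 and 0.20 and Ifnar2 between -0.26 and 0.05. Of 13 signalling genes 0 were called, and Jak1, the kinase at the receptor, was at -0.12 ± 0.04 in SECY against Untreated (limma adjusted p 0.41). Of 16 genes that sense nucleic acid upstream of interferon 0 were called, and Tlr9, the receptor for unmethylated DNA, was at 0.19 ± 0.05 in NNK against Untreated (limma adjusted p 0.209).

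Another 40 interferon-stimulated genes had 0 called in each of the 6 limma comparisons, with Ly6e at 0.23 ± 0.08 in NNK against Untreated (limma adjusted p 0.56). Their median log2 fold change was 0.02 in NNK against Untreated, -0.01 in NNK+SECY against NNK and -0.02 in NNK+SECY against Untreated. Of 19 GTPase and antigen processing genes that answer interferon gamma, 0 were called, and Psmb10, a subunit of the immunoproteasome, was at -0.22 ± 0.08 in NNK against Untreated (limma adjusted p 0.617). In NNK+SECY against NNK 2 of these 19 were above 0 (48.9% of all genes), with a median of -0.17. In NNK against Untreated 16 of 19 were above 0 (52.9% of all genes), with a median of 0.09. Counts without single mice were not taken for this list. The 2 comparisons share the NNK arrays. Diet and slide set cannot be told apart in the first, nor NNK and scan day in the second. One marker of the T and NK cell list, Cd3e, was called by limma, at 0.44 ± 0.08 in NNK against Untreated (adjusted p 0.0195) and -0.36 ± 0.08 in NNK+SECY against NNK (adjusted p 0.0203), while 15 other markers of that list were not. All genes were called at 0.32% and 1.75% in these comparisons. The mean log2 Cy5 signal of Cd3e was 7.55 in Untreated, 8.65 in NNK, 8.43 in SECY and 8.57 in NNK+SECY. Its mean log2 Cy3 signal, from the same mix on every array, was 7.55, 8.20, 8.42 and 8.48, so the reference channel differed between groups too.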

How the data were processed

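RNA from 16 lungs was measured on 16 two-colour Agilent arrays, with the mouse in Cy5 and the untreated mix in Cy3 on every array and no dye swap. Spots were extracted by the authors in Feature Extraction 8.1.1.1, as the file headers record. Each deposited scanner file gives linear intensity values for spots and their local background, the software's processed signals, and its log10 ratio (Cy5 over Cy3). The deposited series table has log2 ratios that equal the file's log10 ratio on the log2 scale within 0.005, with a median of 0 in every column. Flags per spot are deposited too.

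Background was corrected with normexp on the mean signals (offset 50) and normalized by loess within each array, with control and outlier spots at weight 0. Replicate spots were averaged, and a gene was represented by its brightest probe over 16 arrays, tested where Cy5 was well above background throughout 1 or more groups. Of 41174 probes, 22072 were named through an accession, 6280 through a symbol and 4226 through a synonym in a RefSeq table of GRCm38.p6, and 8596 kept the file's name. A probe named Oas1b, an older synonym of Oas1g but the current symbol of another gene, was left out. No source used here states which build the array annotation follows. Signals per dye were taken after Aquantile scaling.

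Group means were estimated together from the 16 arrays in limma (lmFit and eBayes, R 4.3.3, limma 3.58.1, data.table version 1.17.8), with Benjamini-Hochberg p-values adjusted over the genes tested with a threshold of 0.05. The fitting code was tested on simulated data, which bears on the code and not on the calls reported. Fold changes have n = 4 arrays a group. The text names every listed gene with a probe by role, with values per array for the widest range in each role, pathway genes with a call or the smallest p of a list, and the 8 genes most like the members. The members and lists were chosen with earlier results of these data known. Alternatives covered the background correction, normalization, dim probe filter, probe choice, blocks, weights and leaving out each array. Scan day could not be fitted as a block beside the groups, since each group was scanned on 1 day.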

Additional observations from a re-analysis of the deposited data

Results flagged for a closer look

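In groups of 4 arrays, 1 value far from the other 3 was looked for in 118 groups of the 30 genes (2 groups had a missing value), and 11 were found. Chance alone gives about 1 in 20 groups that are independent. These groups are not, since the genes vary together on the same arrays and 1 unusual mouse can give several such values. The 11 therefore cannot be read against that share. Each value is log2(Cy5/Cy3). Gbp3, the guanylate-binding GTPase, was found in 3 groups, at 0.46 in Untreated 1, where the nearest mouse was at -0.16, at 0.42 in SECY 1 (nearest -0.26) and at -0.87 in NNK+SECY 2 (nearest -0.17). SECY 1 also stood above its group in Isg15, at 0.38 (nearest -0.08), and in Gbp2, at 0.23 (nearest -0.06). Untreated 1 stood above its group in Usp18, at -0.02 (nearest -0.21). Untreated 2 stood below its group in Trim25, at -0.15 (nearest 0.08). SECY 3 stood below its group in Ifih1, at -0.44 (nearest 0.09), and above it in Irf7, at 0.13 (nearest -0.13). NNK+SECY 2 stood below its group in Trim30, at -0.26 (nearest -0.01), and NNK+SECY 1 below its group in Ifit1, at -0.27 (nearest -0.11). Of the 11 values, 5 came from Untreated 1 and SECY 1, and 0 from NNK.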

How the results depend on the processing

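The count of interferon response genes called was 0 in all 6 comparisons under every alternative run but 1. With arrays weighted by quality, where SECY 3 had the lowest weight at 0.195, SECY against Untreated called 1 gene, Eif2ak2. Leaving out each array in turn gave 0 to 0 called genes in each comparison. With the replicate number as a block the count stayed at 0, and over all genes SECY against Untreated called 110 in place of 59 and the interaction 2 in place of 1. The numbers were not used to pair mice, since some same-numbered pairs correlated below 0 over all genes (-0.122 to 0.503). The data do hold a hint of pairing: mice numbered 1 correlated at 0.212 to 0.503 in all 5 comparisons, and 9 of 16 arrays were best matched by their own number. How many such matches arise by chance was not computed. Same-numbered Untreated and NNK arrays shared a slide, as did SECY and NNK+SECY arrays. Number and slide cannot be told apart for those pairs. Slide as a fixed block could be fitted for NNK against Untreated, NNK+SECY against SECY and the interaction, and called 0 interferon genes (over all genes 43, 0 and 0).

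Over all genes the counts depended on the setting more. NNK against Untreated called 68, and 0 (tested against a 1.5-fold change) to 131 (without NNK 1) otherwise. SECY against Untreated called 59, and 5 to 262. NNK+SECY against Untreated called 339, and 5 to 528. NNK+SECY against NNK called 371, and 1 to 550. NNK+SECY against SECY called 2, and 0 to 7, and the interaction 1, and 0 to 3. In the first 4 comparisons the lowest count came from the 1.5-fold test, and in the last 2 a count of 0 came from many settings, among them the processed signals, the deposited table and a smaller normexp offset. The cause was not tested. The median SD of the 30 genes was 0.219 on the processed signals and 0.22 in the deposited table, against 0.146. The SD over all genes was not taken on those scales. Their mean correlation was 0.188 without SECY 1 and 0.098 without Untreated 1 and SECY 1, the second chosen after seeing the data. Treating every probe as its own feature, also added after seeing the data, called 0 of these genes. With 4 mice a group, effects well above the median SE of about 0.0949 could also go uncalled. The p-values rest on the spread within groups, where each mouse had 1 array. Differences between mice and between arrays are therefore held in it together.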
